A study of Mus musculus with 6 samples.

Results

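The RNA-seq counts of 33 genes that build, branch, bundle and anchor actin filaments were compared between bone marrow-derived macrophages (BMMs) of WT and Aif1-/- mice. The 33 genes were a fixed list of symbols, named for their role in the actin cytoskeleton by a rule that uses no measured value, although earlier results of these data were known when it was drawn up, and were found by Ensembl identifier among the 47729 genes of the count files. All 33 were present in the files, and 30 had enough counts to be tested. The series holds 6 libraries, 3 from WT and 3 from Aif1-/- cells, all of the C57BL/6J strain. Marrow of 8-week-old male mice was grown into macrophages, immortalized with SV40 large T antigen and kept in α-MEM with the macrophage growth factor CSF-1, and RNA was taken at passages 3 to 5. Both genotypes carry the T antigen, and the Aif1-/- mice lack the gene in every cell. The study describes the 3 libraries of a genotype as independent animals, but the sources used here do not say whether each was immortalized separately, so the p-values measure the spread among these 6 samples. The question behind the comparison is whether transcripts of actin-regulating proteins differ when AIF1, itself an actin-bundling protein, is absent.

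Actin monomers join into polar filaments that push the membrane forward, give the cell its cortex and let a macrophage crawl and engulf particles. The Arp2/3 complex starts new filaments as branches on old ones once WASP and WAVE proteins, acting below Cdc42 and Rac, switch it on, whereas formins and Ena/VASP proteins lengthen unbranched filaments. Plastins, fascin, α-actinins and filamin tie filaments into bundles and networks, coronin and cofilin help take them apart, and ezrin and moesin fasten them to the plasma membrane.

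Counts assigned to genes ranged from 17707986 to 29314253 per library. Normalized counts below are counts divided by the TMM-scaled library size and brought to the mean library. Aif1 itself had 221, 133 and 202 normalized counts in the WT libraries and 3.53, 5.33 and 1.32 in the Aif1-/- libraries, which fits the genotype labels. Its paralog Aif1l had 1, 3 and 0 raw counts in WT and 2, 0 and 0 in Aif1-/- cells and was not tested. All 10 macrophage markers were tested, and granulocyte, fibroblast and lymphocyte markers were too low for testing. The macrophage markers were not level between genotypes. Of the 10, 7 were higher and 1 was lower in Aif1-/- cells, and their summed normalized counts were 88289 to 108277 in WT and 128898 to 131033 in Aif1-/- libraries. Of 5 tested platelet markers 3 were higher, with sums of 972 to 1090 in WT and 2041 to 2147 in Aif1-/- libraries, mostly from Pf4, while Gp1bb was at 0 in every library. Of 2 tested dendritic cell markers 0 were called, and the 1 tested epithelial marker, Cdh1, was lower. The part of these shifts in the actin genes was not tested. In bulk RNA, fewer cells of a type and less RNA per cell cannot be told apart.

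Of the 30 tested actin genes, 5 were higher in Aif1-/- BMMs. Evl and Vasp, which lengthen filaments, were higher by 2.51-fold and 1.45-fold, Actb, the main cytoplasmic actin, by 1.37-fold, the formin Fmnl1 by 1.26-fold, and the Arp2/3 subunit Arpc5 by 1.22-fold. These calls came from edgeR's quasi-likelihood test with Benjamini-Hochberg adjustment over 17406 genes and a threshold of 0.05. Called members made up 16.7% of those tested, against 18.6% of all genes, so the list as a whole was called about as often as genes in general. The calls lay in one direction: 16.7% of the members were higher, against 8.04% of all genes. With edgeR 0 members were lower, against 10.5% of all genes, whereas at an unadjusted p under 0.05 there were 10 higher and 1 lower, where all genes gave 12.9% higher and 16.3% lower. DESeq2 called 6 higher and 0 lower, adding Pfn1, and limma-voom called 5 and 0. Shares of all genes called by these other tools are not given here, so their counts show only which members passed.

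Most of the differences were small. The fold change lay above 0 on the log2 scale for 26 members and below 0 for 4 (Actr3, Wasl, Diaph1 and Actn4), and its median was 0.13, against -0.0035 over all genes tested. The median size of the change without its sign was 0.14 on the log2 scale for members and 0.20 for all genes. All genes were not matched to the members for count level, here or in the shares called. The smaller size therefore cannot be read as particular to the members. Among the 25 members that did not pass, the 95% intervals reached from -0.39 to 0.63 on the log2 scale, so for all 25 a change of 1 log2 unit lay outside the interval, and for 23 a change of 0.5 did. The genotypes did not overlap for 14 members with Aif1-/- cells higher and for 2 with Aif1-/- cells lower, while 14 overlapped. Over all genes tested, 16.5% separated with Aif1-/- cells higher and 19.1% with Aif1-/- cells lower.

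**Figure D1:**
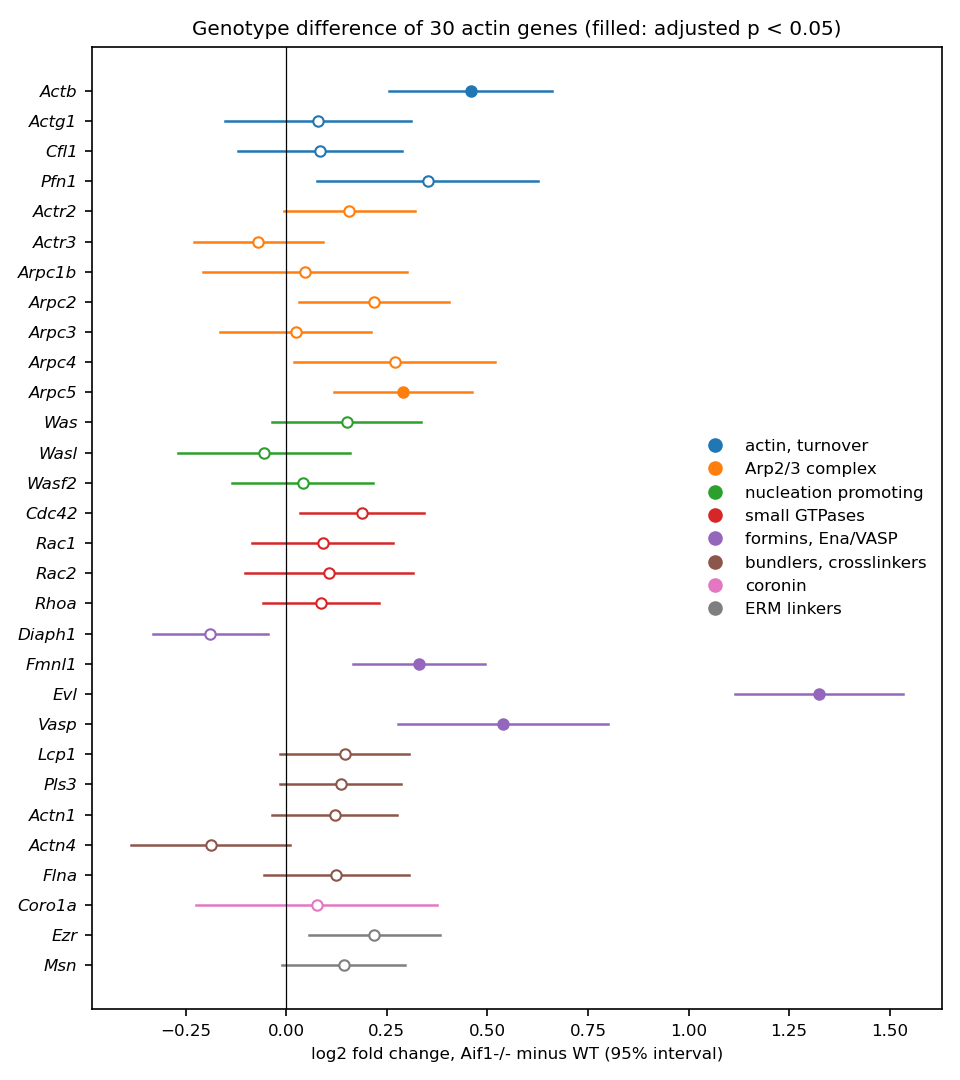
Log2 fold change of Aif1-/- minus WT on the horizontal axis for the 30 tested actin genes, coloured by role, with 95% intervals as lines and filled points for an adjusted p under 0.05. Evl stands apart at 1.32, the other 4 filled points lie between 0.29 and 0.54, and the open points cluster between -0.19 and 0.35.

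Actb, the β-actin gene (ENSMUSG00000029580, GRCm38 chr5:142903115-142906754), had 124909, 111536 and 143788 normalized counts in WT and 170867, 175291 and 176302 in Aif1-/- libraries. All 3 Aif1-/- values lay above the highest WT value. The log2 fold change was 0.46 (SE 0.09, 95% interval 0.26 to 0.66, adjusted p = 0.00515 by edgeR). Actb took 0.493% to 0.581% of all gene counts in WT and 0.730% to 0.753% in Aif1-/- libraries. The study used β-actin as the reference gene of its qRT-PCR.

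Actg1, which encodes the other cytoplasmic actin, γ-actin, had 12982, 11925 and 16298 normalized counts in WT and 14509, 14571 and 14463 in Aif1-/- libraries. Its genotypes overlapped, and the log2 fold change of 0.08 (95% interval -0.15 to 0.31, adjusted p = 0.688 by edgeR) did not pass. Pfn1, profilin, which loads monomers with ATP and feeds them to growing ends, had 11894, 10680 and 15742 normalized counts in WT and 16231, 15805 and 16854 in Aif1-/- libraries. These groups did not overlap, but WT replicate 3 came close to the lowest Aif1-/- library, and the log2 fold change of 0.35 (SE 0.12) had an adjusted p of 0.0782 by edgeR. DESeq2 put Pfn1 past the threshold, with an adjusted p of 0.0235. Cfl1, the filament-severing cofilin, differed by 0.08 on the log2 scale (95% interval -0.12 to 0.29) with overlapping genotypes.

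Counts of some members are split with near-identical copies elsewhere in the genome. The authors kept 1 location per read, so a read that matches a gene and its processed pseudogene, an intronless copy, can be counted on either. Of the members, 5 had such copies with at least 75 aligned bases at 97% identity or more and with counts in these libraries. For Actg1 (chr11:120345690-120348542, minus strand), 4 copies held 99.9% to 102% as many counts as the gene itself in each library. Gm12715 (chr4:103563402-103564529, plus strand) alone held 67.3%. A stretch of both is shown because it makes plain how little separates them. The lines give bases 828 to 887 of the Actg1 open reading frame and of the pseudogene transcript (GENCODE M21, GRCm38), with capitals at the bases that differ.
Actg1: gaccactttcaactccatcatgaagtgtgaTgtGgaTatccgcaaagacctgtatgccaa
Gm12715: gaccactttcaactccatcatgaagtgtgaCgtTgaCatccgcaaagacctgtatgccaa
These 3 differences are among only 4 in 1128 aligned bases. Adding the counts of the copies to Actg1 changed its log2 fold change from 0.08 to 0.07. For Cfl1 the copies held 19.1% to 22.8% as many counts as the gene in each library, and adding them gave 0.10.

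**Figure D2:**
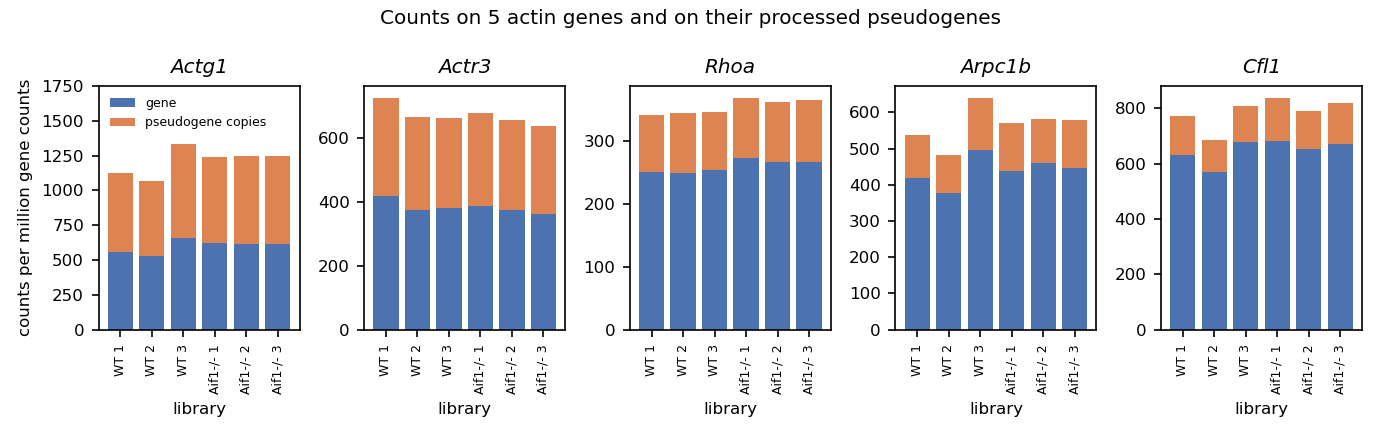
CPM of gene counts on the vertical axis in each of the 6 libraries for the 5 actin genes with well-covered processed pseudogenes, with counts on the gene in blue and counts on its copies stacked in orange; each panel has its own scale. The copies of Actg1 hold about as many counts as the gene in every library, and the share held by copies moves little between libraries.

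The Arp2/3 complex has 7 subunits on the list, and all 7 were tested. Of all genes tested, 18.6% passed the threshold. Arpc5, the smallest subunit, was the only one of the 7 past the threshold, with 6247, 5378 and 6389 normalized counts in WT and 7416, 7475 and 7138 in Aif1-/- libraries (ENSMUSG00000008475, chr1:152766542-152775597). Every Aif1-/- value was above every WT value, and the log2 fold change was 0.29 (SE 0.08, 95% interval 0.12 to 0.46, adjusted p = 0.0241 by edgeR). This call was lost when WT replicate 1 or any one of the 3 Aif1-/- libraries was left out, with adjusted p-values of 0.0532 to 0.117. Arpc2, which forms the core of the complex with Arpc4, had 14071, 12117 and 15125 normalized counts in WT and 16422, 15896 and 15736 in Aif1-/- libraries, which did not overlap, with a log2 fold change of 0.22 (adjusted p = 0.107 by edgeR). Actr2, one of the actin-related subunits that mimic the first monomers of a branch, also did not overlap, at 0.16 on the log2 scale (adjusted p = 0.183 by edgeR). Arpc4 (0.27, 95% interval 0.02 to 0.52), Arpc1b (0.05, -0.21 to 0.30) and Arpc3 (0.02, -0.16 to 0.21) overlapped between genotypes.

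Actr3, the partner of Actr2, lay on the other side of 0 from the remaining 6 subunits. It had 9770, 8489 and 9394 normalized counts in WT and 9060, 8859 and 8444 in Aif1-/- libraries, with a log2 fold change of -0.07 (95% interval -0.23 to 0.09). The difference between subunits was not tested. Actr3 (chr1:125392905-125435727, minus strand) also has a close copy, Gm8822 (chrX:81820384-81822730, minus strand), which held 66.4% as many counts as the gene. In the first aligned block, 8 of 878 bases differ, and the lines below show bases 166 to 225 of the open reading frame and of the pseudogene transcript, with the differing base in capitals.
Actr3: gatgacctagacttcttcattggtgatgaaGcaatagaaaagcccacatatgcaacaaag
Gm8822: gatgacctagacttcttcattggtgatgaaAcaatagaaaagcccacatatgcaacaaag
With the copies added, Actr3 stood at -0.06 on the log2 scale. The copy of Arpc1b held 27.0% to 29.7% as many counts as its gene in each library, and adding it gave 0.05.

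None of the 3 tested nucleation-promoting genes passed the test, against 18.6% of all genes. Was, the blood-cell WASP that Cdc42 switches on, had 1945, 1630 and 1962 normalized counts in WT and 2092, 2000 and 2051 in Aif1-/- libraries. Its genotypes did not overlap, though the nearest libraries were close, and the log2 fold change was 0.15 (95% interval -0.03 to 0.34, adjusted p = 0.275 by edgeR). Wasl, the N-WASP found in most cell types, differed by -0.06 (95% interval -0.27 to 0.16), and Wasf2, the WAVE protein of macrophages that answers to Rac, by 0.04 (-0.13 to 0.22), both on the log2 scale and with overlapping genotypes. Cttn, cortactin, which holds branch points together, had 2, 5 and 1 raw counts in WT and 7, 3 and 2 in Aif1-/- libraries and was not tested. Its blood-cell relative Hcls1 was read at 5059 ± 249 normalized counts in WT and 6060 ± 180 in Aif1-/- cells (SD, n = 3 each).

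The 4 small GTPases, which switch these pathways on at the membrane, gave log2 fold changes between 0.09 and 0.19. With edgeR 0 of the 4 passed, against 18.6% of all genes. Cdc42, the upstream switch of WASP, was at 10836, 9568 and 10596 normalized counts in WT and 11940, 12005 and 11359 in Aif1-/- libraries. It was the only one of the 4 whose genotypes did not overlap, at 0.19 (SE 0.07, adjusted p = 0.0933 by edgeR). Rac1 (0.09, 95% interval -0.08 to 0.27), the blood-cell form Rac2 (0.11, -0.10 to 0.32) and Rhoa (0.09, -0.06 to 0.23) overlapped. Rac1 shares 2309 of its 4496 exon bases with the genes on the other strand, Daglb and Gm42502, and Rhoa has copies that held 35.3% to 38.5% as many counts as the gene in each library. With them added, Rhoa stood at 0.08 on the log2 scale. The intervals of all 4 overlap one another.

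The formins and Ena/VASP proteins held 3 of the 5 calls, among 4 tested members. Over all genes tested, 18.6% were called and 8.04% were called higher. With so few genes per role, differences between roles were not tested. Evl (ENSMUSG00000021262, chr12:108554720-108688516) is an Ena/VASP protein of blood and other cells that binds growing filament ends. It had 288, 313 and 321 normalized counts in WT and 789, 736 and 785 in Aif1-/- libraries. The lowest Aif1-/- library was more than 2 times the highest WT library, and the log2 fold change was 1.32 (SE 0.09, 95% interval 1.12 to 1.53, adjusted p = 4.48e-06 by edgeR). Evl was the only member called when the test asked for more than a 1.2-fold change, a test that called 10.6% of all genes. It kept its call in all 6 fits that left out a library, at 1.28 to 1.36 on the log2 scale. Evl shares 278 of its 2940 exon bases with the genes on the other strand, Degs2 and Gm16596.

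The RefSeq promoter table holds 2 start sites for Evl on GRCm38.p6. The window of the upstream one, 250 bases before to 50 after the start at chr12:108554470-108554769 on the plus strand, is printed because Evl carries the largest difference among the 30 tested members. Capitals mark its 3 matches to a GC box (CCGCCC, or GGGCGG on the other strand), a common promoter motif.
Evl: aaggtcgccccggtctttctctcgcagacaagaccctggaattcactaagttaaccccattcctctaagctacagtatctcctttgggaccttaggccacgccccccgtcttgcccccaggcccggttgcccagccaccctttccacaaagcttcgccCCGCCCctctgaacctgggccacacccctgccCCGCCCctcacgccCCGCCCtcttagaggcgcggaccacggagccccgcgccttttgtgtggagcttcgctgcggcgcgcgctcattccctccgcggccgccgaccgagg
The other window, at chr12:108605516-108605815, has 0 such matches. The counts are per gene and do not tell which start was used.

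Vasp (ENSMUSG00000030403, chr7:19256929-19271817), the founding member of the same family and a phosphorylation target of cyclic nucleotide kinases, had 1603, 1295 and 1884 normalized counts in WT and 2274, 2345 and 2331 in Aif1-/- libraries. The groups did not overlap although the WT libraries spread widely, and the log2 fold change was 0.54 (SE 0.12, 95% interval 0.28 to 0.80, adjusted p = 0.00857 by edgeR). Fmnl1 (ENSMUSG00000055805, chr11:103171107-103198901), a formin of leukocytes, had 7239, 7026 and 8257 normalized counts in WT and 9357, 9380 and 9561 in Aif1-/- libraries, a log2 fold change of 0.33 (SE 0.07, 95% interval 0.16 to 0.49, adjusted p = 0.0102 by edgeR). Like Arpc5, Fmnl1 lost its call without WT replicate 1 or any one of the Aif1-/- libraries, at adjusted p-values of 0.0526 to 0.0620. Diaph1, the formin that RhoA activates, pointed the other way. It had 8772, 8932 and 9642 normalized counts in WT and 7860, 8128 and 8017 in Aif1-/- libraries, without overlap, and a log2 fold change of -0.19 (SE 0.06, 95% interval -0.33 to -0.05, adjusted p = 0.0707 by edgeR). Diaph1 passed as lower without WT replicate 2 (adjusted p = 0.0474 by edgeR) and without WT replicate 3 (adjusted p = 0.0491).

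**Figure D3:**
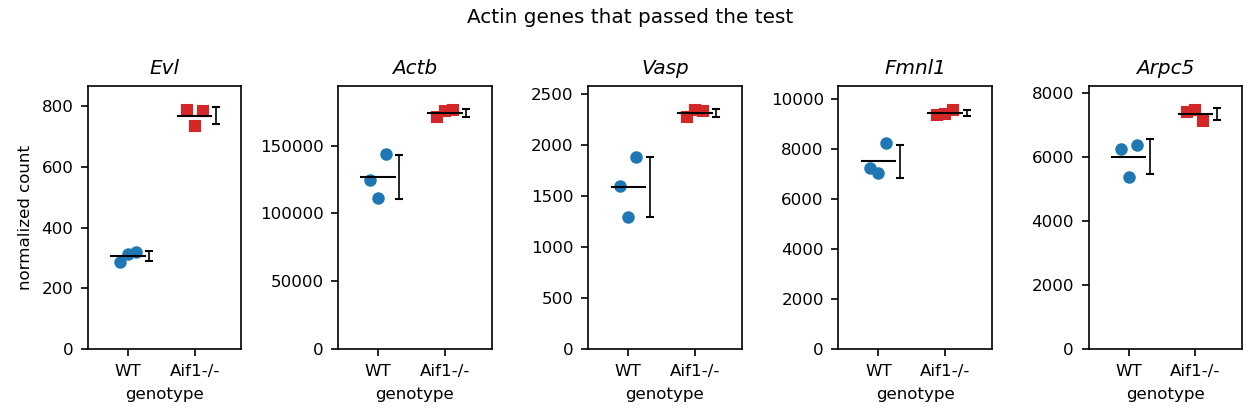
Normalized counts on vertical axes that start at 0 for the 5 actin genes past the threshold, with WT libraries as circles and Aif1-/- libraries as squares; horizontal lines are means and bars beside them are SD (n = 3 each). In every panel the 3 Aif1-/- libraries lie above all 3 WT libraries, and in all panels except Evl the WT libraries spread more widely than the Aif1-/- libraries.

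Of the 7 bundling and crosslinking genes, 5 were tested and 0 passed with edgeR, against 18.6% of all genes. Lcp1, or L-plastin, the bundler of leukocytes, had 41752, 38012 and 44617 normalized counts in WT and 45918, 46134 and 45531 in Aif1-/- libraries. The genotypes did not overlap, and the log2 fold change was 0.15 (95% interval -0.01 to 0.31, adjusted p = 0.219 by edgeR). Pls3, the plastin of many non-blood tissues, was also well expressed, with 5283 ± 293 normalized counts in WT and 5802 ± 216 in Aif1-/- cells (SD, n = 3 each) and a log2 fold change of 0.14 (95% interval -0.02 to 0.29), with overlapping genotypes. Flna, filamin A, which crosses filaments at wide angles, differed by 0.12 (95% interval -0.06 to 0.30) with overlapping genotypes.

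The α-actinins, antiparallel crosslinkers, lay on opposite sides of 0. Actn1 had 6775, 6123 and 7057 normalized counts in WT and 7115, 7402 and 7175 in Aif1-/- libraries, a log2 fold change of 0.12 (95% interval -0.04 to 0.28). Actn4 had 10284, 9562 and 12250 in WT and 9344, 9428 and 9405 in Aif1-/- libraries, a log2 fold change of -0.19 (95% interval -0.39 to 0.01, adjusted p = 0.196 by edgeR). Neither pair of genotypes overlapped, but the gaps to the nearest library were narrow beside the WT spread. Without WT replicate 2, Actn4 passed as lower (-0.26 on the log2 scale, adjusted p = 0.0360 by edgeR).

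The remaining bundlers were barely read. Pls1, the plastin of intestinal and inner ear cells, had 3, 0 and 0 raw counts in WT and 0, 2 and 0 in Aif1-/- libraries. Fscn1, fascin, which packs filaments into filopodia and rises when dendritic cells mature, had 8, 10 and 22 raw counts in WT and 3, 1 and 2 in Aif1-/- libraries. All 3 WT libraries were above all Aif1-/- libraries, but the gene fell below the filter on low counts. With no filter its log2 fold change was -2.31 and its adjusted p by edgeR 0.0460, a value that rests on 40 counts in WT and 6 in Aif1-/- cells.

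Coro1a, the blood-cell coronin that binds Arp2/3 and filament sides, had 5910, 5653 and 8522 normalized counts in WT and 6969, 7021 and 7185 in Aif1-/- libraries. WT replicate 3 lay above and the other WT libraries below all Aif1-/- libraries. The log2 fold change of 0.08 had the widest error of the tested members (SE 0.13, 95% interval -0.22 to 0.38). Of the membrane linkers, Ezr, ezrin, had 1812, 1666 and 1930 normalized counts in WT and 2083, 2095 and 2119 in Aif1-/- libraries, without overlap, and a log2 fold change of 0.22 (SE 0.07, adjusted p = 0.0648 by edgeR). Msn, moesin, the main linker of leukocytes, also separated, at 29326 ± 1991 normalized counts in WT and 32370 ± 240.1 in Aif1-/- cells (SD, n = 3 each) and 0.14 on the log2 scale (95% interval -0.01 to 0.29, adjusted p = 0.203 by edgeR).

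On TMM-normalized counts the WT libraries ordered the members alike. WT replicate 2 was the lowest WT library for 27 of the 30 tested members and WT replicate 3 the highest for 23. Both held for 21 members, or 70.0%, against 27.0% of all genes tested. This order depends on the scaling. On levels per length (TPM, given below), WT replicate 3 was the lowest WT library for Lcp1, Msn and Actr2, among others. It was the highest for Coro1a and Pfn1, among others. On normalized counts the coefficient of variation was larger in WT than in Aif1-/- cells for all 30, with medians of 9.92% and 2.24%. Over all genes tested with at least the lowest mean of a tested member, the medians were 8.94% and 3.26%. This too depends on the scaling. On TPM the coefficient was larger in Aif1-/- cells for Wasf2, Rac2 and Flna, and larger in WT for most other tested members. WT replicate 2 also had the largest share of reads outside genes, 40.4%, and WT replicate 3 the smallest, 25.5%, with 32.4% in WT replicate 1 and 33.6% to 35.7% in the Aif1-/- libraries.

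The number of called members moved with these libraries. Without WT replicate 3, 18 members were higher and 1, Diaph1, was lower, while 13.6% of all genes were called higher. When the fraction of reads falling outside genes entered the model as a covariate, 21 members were higher and 2, Diaph1 and Actn4, were lower, while 15.4% of all genes were called higher. With upper-quartile factors or library totals in place of TMM, 9 members were higher and 1, Diaph1, was lower. Of all genes, 8.54% and 8.39% were called higher. The shares of all genes called lower in these fits are not given here. Without WT replicate 1, or without any one Aif1-/- library, 3 members were called: Actb, Evl and Vasp. The share of all genes called in each of these fits is not given here. Calls among all genes also moved when a library was left out, over the range given in the closing section. The smaller number of members called therefore cannot be read as particular to them. Those 3 passed in every fit that left out a library, and among the alternatives run Actb and Vasp missed the threshold only in the test against a 1.2-fold change, at adjusted p-values of 0.0676 and 0.0541 by edgeR.

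**Figure D4:**
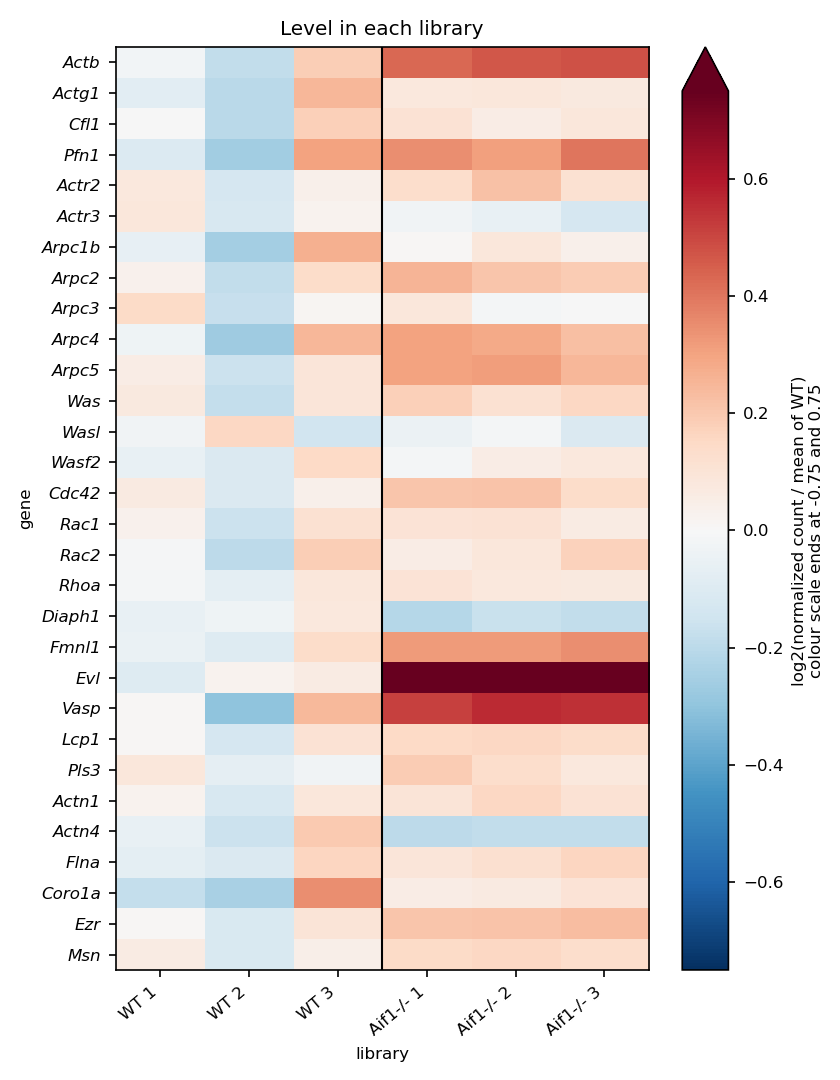
Level of each tested actin gene in each library as a colour, the log2 of its normalized count over the WT mean, with the colour scale ended at -0.75 and 0.75 and the genotypes split by a line. WT replicate 2 is the lowest of the WT columns for 27 of 30 genes and WT replicate 3 the highest for 23, and the 3 Aif1-/- columns differ less from one another.

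Levels were compared between genes only per length, as counts per kilobase of the union of a gene's exons scaled to the same total in every library (TPM). Actb stood far above the rest, at 4853 ± 121 TPM in WT and 6660 ± 128 in Aif1-/- cells (SD, n = 3 each). Arpc2 followed at 696 ± 32 TPM in WT, and Pfn1, Cfl1, Actg1, Flna, Msn, Lcp1 and Actr2 lay between 445 and 542 TPM, too close for an order given their spread. The order below Actb depends on the length used: over the longest transcript, WT levels were 959 TPM for Lcp1, 849 for Arpc2, 724 for Arpc3 (273 over the union) and 320 for Actr3 (205 over the union). Counts on processed pseudogenes are left out of these levels. Over all libraries, copies held 101% as many counts as Actg1, 75.2% as Actr3, 36.4% as Rhoa, 28.7% as Arpc1b and 21.3% as Cfl1. The TPM of these genes may thus be too low, most of all for Actg1, and their place in the order is not settled. Over the union of exons, the other tested members apart from Wasl and Evl lay between 56.4 and 360 TPM in WT. Among tested members the lowest levels were those of Wasl at 12.5 ± 2.59 TPM and Evl at 10.8 ± 1.11 TPM in WT. The untested Fscn1, Cttn and Pls1 lay lower still. Evl thus stayed among the less abundant members at 26.8 ± 1.02 TPM in Aif1-/- cells, where Vasp was at 90.7 ± 1.65 TPM against 62.2 ± 5.39 in WT. Together the 33 genes took 1.76% to 1.98% of all gene counts in WT and 2.20% to 2.22% in Aif1-/- libraries. Actb alone took 0.493% to 0.581% in WT and 0.730% to 0.753% in Aif1-/- libraries, a large part of that rise.

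Ratios of related genes within a library do not depend on scaling between libraries. The ratio was computed for 9 pairs on length-scaled counts and tested with a two-sided exact permutation test, which with 3 libraries against 3 cannot go below p = 0.1. γ-Actin to β-actin (Actg1/Actb) was -3.25, -3.21 and -3.13 on the log2 scale in WT and -3.55, -3.58 and -3.60 in Aif1-/- libraries. Counts on the copies of Actg1 are left out, so the level of this ratio may be too low. This ratio separated the genotypes, as did Evl/Vasp (mean -2.53 in WT and -1.76 in Aif1-/- cells), Fmnl1/Diaph1 (0.09 and 0.61), Actn1/Actn4 (-0.53 and -0.23), Ezr/Msn (-3.08 and -3.00) and the thinly counted Fscn1/Lcp1 (-10.24 and -12.76). Each had an exact permutation p of 0.1, the smallest possible, and 0.15 after Benjamini-Hochberg adjustment over the 9 pairs. Lcp1/Pls3 (p = 0.8), Rac2/Rac1 (p = 0.7) and Was/Wasl (p = 0.3) overlapped in the same exact test. How often other gene pairs separate was not computed. Among single genes tested, 16.5% separated with Aif1-/- cells higher and 19.1% with Aif1-/- cells lower. Relative to Actb, 59.5% of 17405 genes were lower in Aif1-/- cells without overlap, so the separation of Actg1/Actb is shared by most genes.

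Because Actb is a common reference, the other 29 tested members were also set against it within each library, a measure chosen after the values were seen. Relative to Actb, 26 of the 29 were lower in Aif1-/- cells without overlap, Evl and Vasp were higher without overlap, and Pfn1 overlapped. The median log2 change relative to Actb was -0.34. Over the 17405 other genes tested, 59.5% were lower relative to Actb without overlap. Every one of these ratios carries the difference in Actb itself, so the 29 are not separate measurements of it.

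A wider set of 134 actin genes in 6 lists served as context. They were named by role and not by how they moved, but with earlier results of these data known. Their called share therefore describes these lists and does not show how often actin genes in general differ. With 112 of them tested, Aif1-/- cells were higher for 22 and lower for 20, a called share of 37.5%, against 16.7% of the listed members and 18.6% of all genes; Vcl is in 2 of the lists and counts once in this total. Their median log2 fold change was -0.0032. Among capping, severing and monomer-binding genes 6 of 23 were higher and 4 lower. Tmsb4x, thymosin β4, which holds monomers in reserve beside profilin, was higher by 0.84 on the log2 scale (27187 ± 3674 to 48530 ± 2130 normalized counts, SD, n = 3 each, adjusted p = 0.000143 by edgeR), and Tmod1, a cap of pointed ends, was lower by -1.89 (583 ± 19.8 to 158 ± 5.59). The cofilin phosphatase Ssh2 was higher by 0.72, and Limk2, a kinase that acts on cofilin, was lower, at -0.72.

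Among partners of Arp2/3, WASP and WAVE, 2 of 25 were higher and 5 lower, all below 0.5 log2 units in size among those named. They included Hcls1 (0.26) and Fnbp1 (0.25), higher, and the adaptor Nck2 (-0.45) and the Arp2/3 inhibitor Arpin (-0.33), lower. Of the formin, Ena/VASP and coronin paralogs 4 of 16 were higher and 3 lower. Spire1, a nucleator that works with formins, was higher by 0.71 on the log2 scale, Fmnl3 by 0.56 and Fhod3 by 0.80, while Fmnl2 was lower, at -0.63. Within the FMNL family, Fmnl1 and Fmnl3 were thus higher and Fmnl2 was lower.

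Of the 14 crosslinker, bundler and membrane linker paralogs tested, 2 were higher and 5 lower. Flnc, the filamin of muscle, had 59, 65 and 74 raw counts in WT and 0 in each Aif1-/- library. Swap70 (0.29) and the thinly counted drebrin Dbn1 (4.39 ± 2.79 to 23.7 ± 6.25 normalized counts) were higher. Small GTPase paralogs and regulators had 6 of 25 higher and 3 lower. The Rac activator Tiam1 fell from 222 ± 20.7 to 8.96 ± 4.63 normalized counts (-4.60 on the log2 scale, SE 0.28, adjusted p = 1.68e-06 by edgeR), and Rac3 (-2.25) and Rhoj (-1.24) were lower, while Dock8, a Cdc42 activator, was higher by 1.03. Of 10 tested SRF and MRTF factors and targets, 2 were higher (Cnn2, 0.42, and Acta1, 0.83) and 1, vinculin (Vcl), was lower, at -0.28.

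**Figure D5:**
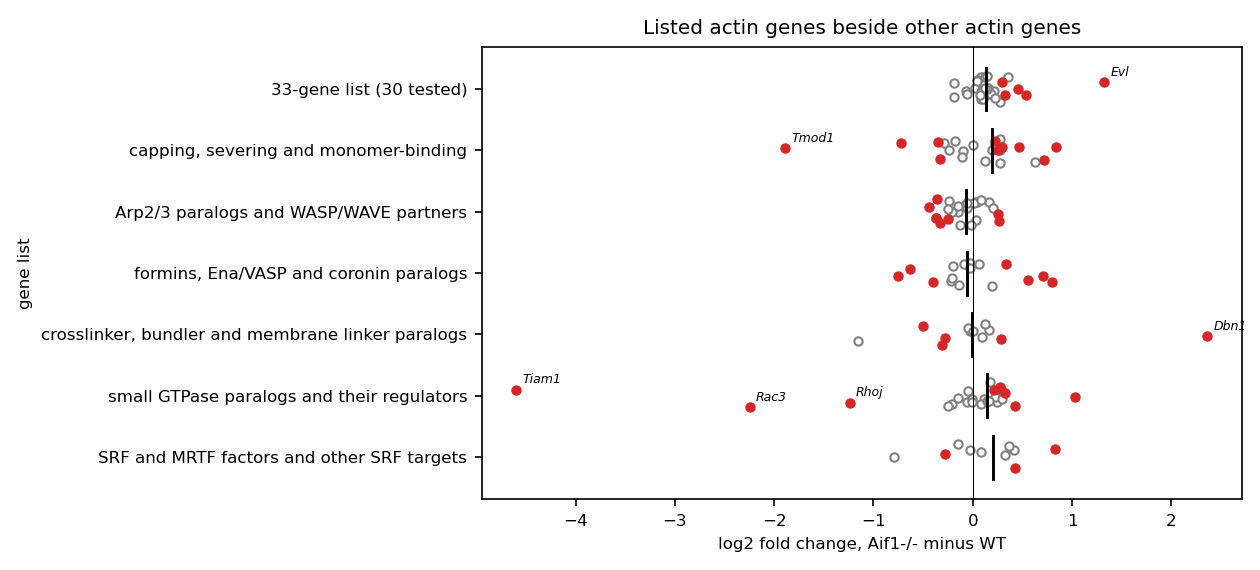
Log2 fold change of Aif1-/- minus WT on the horizontal axis for the tested genes of the listed members (top row) and of the 6 wider actin lists, with red points for an adjusted p under 0.05, open points for the rest and a black bar at the median of the genes drawn; Flnc, at 0 counts in all Aif1-/- libraries, and 1 gene that is not reported here are not drawn. Apart from Evl the top row stays between -0.19 and 0.54, while the other rows reach from -4.60 to 2.36.

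Many actin genes answer to serum response factor (SRF), which binds the CArG box and whose MRTF coactivators are held back by free actin monomers. RefSeq promoter windows, 250 bases before to 50 after the start on GRCm38.p6, were matched for 28 members, some with more than one window, and not for Actb, Cttn, Diaph1, Rac1 and Rac2. A CArG box was found on either strand in a window of 2 of the 28 genes (7.14%), Actg1 and Arpc4, against 1.81% of the 27025 genes with a window and 1.48% of the 10187 of these that were tested. The stretch around the Actg1 match, at chr11:120348551-120348610 on the minus strand, is printed with the CArG box, 90 bases before the start, in capitals.
Actg1: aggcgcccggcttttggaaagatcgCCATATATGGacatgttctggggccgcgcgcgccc
Neither gene passed the test between genotypes. A GC box was found in a window of 23 of the 28 genes (82.1%), against 38.2% of all genes with a window and 66.4% of those tested. Matches of this kind describe letters and are not measured binding.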

How the data were processed

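RNA was measured in 6 libraries, 3 WT and 3 Aif1-/-, prepared after ribosomal RNA depletion and read as single ends. According to the submitters' processing notes and the methods, the authors used Trim Galore 0.5 for trimming, TopHat2 2.0.13 for alignment to GRCm38 at 1 location per read, and HTSeq 0.6.1p1 to count reads per gene of Ensembl release 84. The deposited values are raw counts with no normalization. Rows that name no gene stayed out of library sizes and tests; reads outside genes were 25.5% to 40.4% and ambiguous reads 4.55% to 7.15% of the counted reads.

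Counts were tested with edgeR 4.0.16 (R 4.3.3, limma 3.58.1): quasi-likelihood test on genotype, TMM, the default filter by expression, Benjamini-Hochberg adjustment over 17406 genes. Standard errors were taken as the absolute log2 fold change divided by the root of the F statistic. Gene names and coordinates came from GENCODE M21, which matched 47310 of 47729 genes. The members and the other gene lists were chosen with earlier results of these data known. Named are all members, Aif1, Aif1l, marker genes and up to 4 called genes of each wider list with the smallest adjusted p, of which 1 is not reported here. Copies were found by alignment of member transcripts, promoters came from RefSeq. Of the 30 tested members, 17 overlap a gene on the other strand and 12 share exon bases with one. In these counts such genes may not be separated. On simulated counts for 17406 genes, the test recovered 50.7%, 73.1% and 92.4% of genes changed by 0.585, 1 and 2 on the log2 scale, with 6 false calls. Genes were drawn independently, each with 1 dispersion for both genotypes. In the normalized counts of the data, WT libraries spread more widely and ordered many members alike. Every called member except Evl changed by less than 0.585. The simulated shares and false calls therefore do not carry over to the members. Alternatives were DESeq2 1.42.0, limma-voom, other size factors, other filters, a replicate block, each library left out, a 1.2-fold threshold, a covariate, genes with no gene on the other strand and, added after the data were seen, copies added to their gene.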

Additional observations from a re-analysis of the deposited data

How the results depend on the processing

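Numbers of calls are given as higher and lower in Aif1-/- cells by edgeR unless another tool is named. As reported there were 1399 and 1832 among all genes, 5 and 0 among the actin members and 22 and 20 among the 134 other actin genes. Against a fold of 1.2 these were 744 and 1102, 1 and 0, and 8 and 8. When the fraction of reads outside genes was a covariate they were 2678 and 2839 among all genes and 21 and 2 among the members, with 43 of the other actin genes higher. Among genes with no gene on the other strand, where fewer genes were tested, they were 783 and 1067 among all genes, 2 and 0 of 13 members, and 11 and 13. The number of genes tested in that fit is not given here, so these counts give no shares to compare. Upper-quartile factors and library totals each gave 9 and 1 for the members, adding Pfn1, Arpc2, Cdc42, Ezr and Diaph1, and 1486 and 1846 or 1460 and 1855 for all genes. With no filter 7 members were higher, adding Pfn1 and Arpc4, and 1, Fscn1, was lower. The stricter filter gave 6 and 0, adding Ezr. Calls among all genes under these other filters are not given here, so their counts show only which members passed. Without one library at a time, calls among all genes ranged from 874 to 2404 higher and 1166 to 2485 lower, among members from 3 to 18 higher and 0 to 2 lower, and among the other actin genes from 11 to 41 higher and 10 to 27 lower. The most calls higher came without WT replicate 3, and the 2 members lower without WT replicate 2 were Diaph1 and Actn4. Fits that leave out a library hold a genotype of 2 libraries. Small differences changed sign in those fits: Actg1 ranged from -0.0085 to 0.23 on the log2 scale, Cfl1 from -0.0040 to 0.19, Arpc1b from -0.0623 to 0.21, Arpc3 from -0.0514 to 0.10, Wasl from -0.12 to 0.0343, Wasf2 from -0.0067 to 0.13 and Coro1a from -0.0285 to 0.29, all 7 turning without WT replicate 2. Coro1a also turned without WT replicate 1 (-0.0068) and Arpc3 without Aif1-/- replicate 1 (-0.0014). The cause of these changes was not tested. In every other alternative each member tested kept its direction, and Evl was called wherever it was tested. The replicate numbers showed no sign of pairing the libraries: correlations of same-numbered libraries were 0.060, -0.075 and -0.086. These are correlations of deviations from genotype means, with 3 libraries per genotype, and cannot exclude shared handling. With the replicate number as a block (replicate block), 6 members were higher, Pfn1 being added, 0 were lower, and 1267 and 1605 genes were called. Members with few counts (Fscn1, Cttn and Pls1) limit what can be said of them at this depth.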
